A study of Homo sapiens with 40 samples.

Results

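NF-kB is a family of transcription factors built from Rel proteins, and the genes described here encode its subunits and the proteins that restrain them. The set held 10 genes: the Rel proteins RELA, REL and RELB, the precursor subunits NFKB1 and NFKB2, the cytoplasmic inhibitors NFKBIA, NFKBIB and NFKBIE, the nuclear IkB protein NFKBIZ, and the feedback enzyme TNFAIP3. Members were taken by gene name from a table of read counts with 44584 rows, and all 10 of 10 were found. They were chosen with earlier results of these data known. Every member passed the filter on low counts in each fit, and the lowest count of a member in any library was 7, in TNFAIP3.

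In resting cells, IkB proteins hold NF-kB dimers in the cytoplasm, and the IKK kinases mark these inhibitors for destruction when a receptor is engaged. Freed dimers enter the nucleus and bind kappa B sites in DNA, among them sites at the genes of their own inhibitors, so that the pathway limits itself. A canonical branch works through RELA and the product of NFKB1, and a non-canonical branch works through RELB and the processed product of NFKB2. In breast epithelium the pathway is known for its part in survival, inflammation and mammary development.

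RNA was sequenced from the human HER2-positive breast cancer line BT474, which is sensitive to trastuzumab, and from BT474R, a resistant derivative that the methods describe as a single clone of BT474 grown in trastuzumab. Cells of both lines were serum starved, and T0 was collected at the end of starvation. The other groups received epidermal growth factor (EGF), heregulin (HRG) or water as the vehicle, in fresh starvation medium, for 1 h, 12 h or 24 h. By the methods, EGF was given at a higher mass concentration than HRG, so ligand and dose cannot be told apart. Each of the 20 groups held 2 libraries, 40 in all, with 16794594 to 33387936 counts per library (median 24224094). The methods say that treatments were done in duplicate but not whether on separate occasions or from separate cultures, so p-values measure only the spread between these libraries, which may be technical. Levels are CPM, the counts of a gene scaled to a common library size of 1e+06 with TMM factors, and a change is a log2 fold change with its standard error (SE). Members are named DEGs where edgeR's quasi-likelihood test gave a p below 0.05 once adjusted by Benjamini-Hochberg across every gene tested. In bulk RNA, fewer cells that express a gene and less RNA of it per cell cannot be told apart.

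All 9 of the 9 luminal and HER2 markers used to check the cell type (EPCAM, KRT8, KRT18, KRT19, CDH1, GATA3, FOXA1, ERBB2, GRB7) had more than 3 counts in all 40 libraries, with ERBB2 at 6120 to 9960 CPM. GATA3 was at most 54.6 CPM in BT474R and reached 574 CPM in BT474. Among the 9 leukocyte markers, PTPRC, CD3E, CD2 and MS4A1 were at 3 counts or fewer in every library (CD2 at 0). LYZ passed 3 counts in 39 libraries, CSF1R in 19, ITGAM in 7 and CD14 in 1, and the highest level was 1.45 CPM, in LYZ. Of 7 fibroblast and endothelial markers, PDGFRB was at 3 counts or fewer throughout, while COL1A1 was at 74.7 to 282 CPM and VWF at 8.47 to 24.5 CPM. CDH5 passed 3 counts in 39 libraries (at most 7.49 CPM), COL3A1 in 30, KDR in 12 and PECAM1 in 3. The part of these genes in the results was not tested. Beyond counting noise, replicates spread less in BT474 (common dispersion 0.00121) than in BT474R (0.003). The replicates of a group differed by more than counting noise throughout, most of all in HRG-BT474R at 24 h, where the median chi-square over genes was 2.56 against 0.455 from counting noise.

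The 6 members that were DEGs in EGF-BT474R at 24 h are shown with the start of their genes, since kappa B sites there are the best known feature of this family's own control. The windows run from 250 bases before to 50 bases after the RefSeq gene start (RefSeq sequences, GRCh38.p14), read 5′ to 3′ on the strand of the gene. Capitals mark matches to the kappa B consensus on either strand. NFKB1, NFKB2 and NFKBIZ have more than 1 annotated start, and the window with the most matches, or the first among equals, is printed.
NFKBIA chr14:35404700-35404999 (minus strand): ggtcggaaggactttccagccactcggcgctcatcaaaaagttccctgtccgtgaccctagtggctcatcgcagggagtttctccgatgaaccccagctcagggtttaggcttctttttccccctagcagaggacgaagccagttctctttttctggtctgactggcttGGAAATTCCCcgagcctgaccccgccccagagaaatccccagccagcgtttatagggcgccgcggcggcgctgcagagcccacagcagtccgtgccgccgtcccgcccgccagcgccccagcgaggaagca
NFKBIZ chr3:101827740-101828039 (plus strand): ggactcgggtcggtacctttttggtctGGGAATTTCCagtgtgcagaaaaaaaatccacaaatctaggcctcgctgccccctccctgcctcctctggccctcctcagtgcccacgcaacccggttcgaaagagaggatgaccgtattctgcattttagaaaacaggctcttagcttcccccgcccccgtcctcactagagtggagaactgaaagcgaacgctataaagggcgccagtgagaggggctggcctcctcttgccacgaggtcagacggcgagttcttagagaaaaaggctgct
TNFAIP3 chr6:137867009-137867308 (plus strand): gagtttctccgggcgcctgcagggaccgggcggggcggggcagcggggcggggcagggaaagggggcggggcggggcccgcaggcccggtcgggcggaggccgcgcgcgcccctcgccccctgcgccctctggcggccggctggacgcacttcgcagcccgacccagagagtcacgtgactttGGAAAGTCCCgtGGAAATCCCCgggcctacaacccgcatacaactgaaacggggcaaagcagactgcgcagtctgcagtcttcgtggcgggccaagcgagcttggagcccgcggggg
NFKB2 chr10:102394328-102394627 (plus strand): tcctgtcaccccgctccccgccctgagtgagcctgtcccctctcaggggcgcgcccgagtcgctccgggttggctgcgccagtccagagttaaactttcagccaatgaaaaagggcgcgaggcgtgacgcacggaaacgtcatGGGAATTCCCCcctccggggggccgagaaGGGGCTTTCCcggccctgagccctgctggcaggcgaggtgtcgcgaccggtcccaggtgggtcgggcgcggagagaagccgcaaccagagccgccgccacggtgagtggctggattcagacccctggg
NFKB1 chr4:102501109-102501408 (plus strand): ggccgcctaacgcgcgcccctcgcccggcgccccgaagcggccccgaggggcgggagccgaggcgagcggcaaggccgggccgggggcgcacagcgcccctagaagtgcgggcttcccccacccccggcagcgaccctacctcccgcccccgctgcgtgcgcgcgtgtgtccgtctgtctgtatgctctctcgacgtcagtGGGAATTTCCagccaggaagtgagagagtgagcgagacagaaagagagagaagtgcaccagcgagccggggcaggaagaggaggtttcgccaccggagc
REL chr2:60881324-60881623 (plus strand): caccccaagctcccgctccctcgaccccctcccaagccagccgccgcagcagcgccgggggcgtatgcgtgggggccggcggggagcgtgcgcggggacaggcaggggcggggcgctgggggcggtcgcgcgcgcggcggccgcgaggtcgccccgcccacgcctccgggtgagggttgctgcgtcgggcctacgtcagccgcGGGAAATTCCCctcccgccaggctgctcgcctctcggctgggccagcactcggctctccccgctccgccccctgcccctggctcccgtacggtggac

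NFKBIA held 1 match, at positions -81 to -72 from the gene start, and NFKB1 held 1, at -49 to -40. The TNFAIP3 window held 2 matches, separated by 2 bases. The REL window held 2 matches that overlap on the same stretch, and an EGR motif (GCGTGGGCG, here on the other strand) at -96 to -88. The printed NFKB2 window held 3 matches, 2 of them overlapping, and NFKBIZ held 1, at -223 to -214. Of the 35116 windows of the same length in the RefSeq table, 5.91% held a match to the kappa B consensus and 0.795% held the EGR motif. That share is per window, while the windows printed here were picked for their matches. Among windows not printed, those of NFKB2 and NFKBIZ included some with matches, but the first of NFKB2 and the second of NFKB1 had none. Of members not called there, NFKBIB had 2 overlapping matches in a window, and the windows of RELA had none. The AP-1 motif TGANTCA, found in 7.71% of all windows, was seen among the members only in a window of NFKBIB. The motif TTCNNNGAA, found in 7.66%, was seen only in a window of RELA. The CRE motif TGACGTCA (1.85%) and the serum response CArG consensus (1.29%) were in none of the members' windows. No window of NFKBIE or RELB was analysed here. A match is a run of letters in this window and does not show that a factor binds there.

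Per kilobase of annotated exon (GENCODE v44, all exons of a gene merged), RELA was the most abundant member at T0, with 23.8 CPM per kilobase in BT474 and 18.5 in BT474R. NFKBIA followed, at 15.7 and 15.9 CPM per kilobase, and NFKBIB was next at 5.16 and 6.07. NFKB1, NFKBIE and NFKB2 lay close together in BT474, at 2.76, 2.56 and 2.45 CPM per kilobase. In BT474R their order was different, with NFKBIE at 5.11, NFKB2 at 3.3 and NFKB1 at 1.75. REL, NFKBIZ and RELB ranged from 0.557 to 1.41 CPM per kilobase in the lines. TNFAIP3 was the scarcest, at 0.149 in BT474 and 0.133 in BT474R. Merged exons include long ends that a transcript may not use, so REL and NFKB1, with 17129 and 15679 bases, can be placed too low on this scale.

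**Figure D1:**
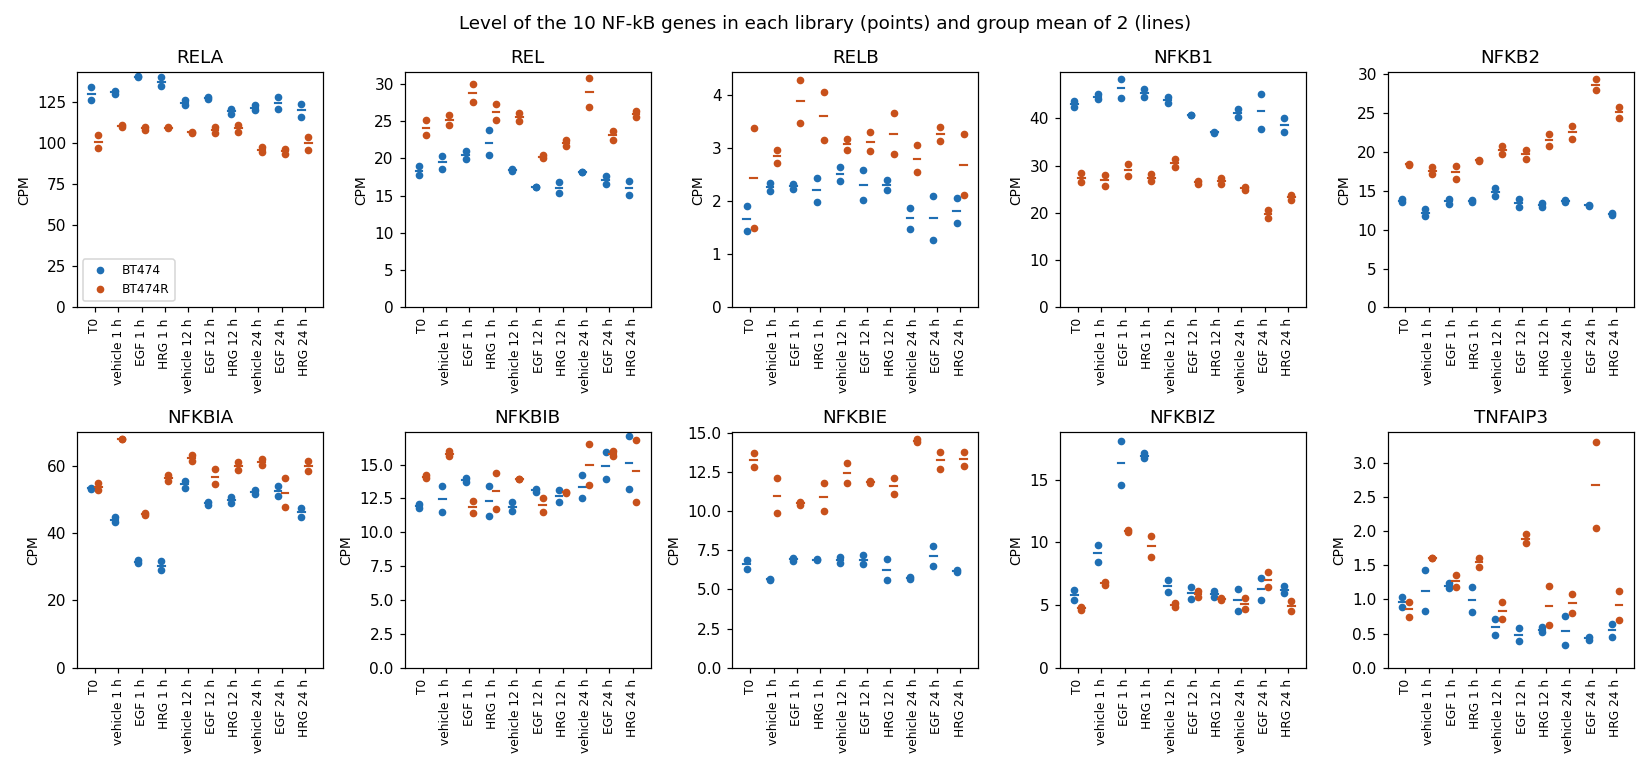
Level of each member (CPM, linear axis from 0) in all 40 libraries, by treatment and time. Blue is BT474 and orange BT474R, each point is 1 library and each short line the mean of 2 libraries. RELA and NFKB1 are higher in BT474 in every condition, REL, NFKB2 and NFKBIE are higher in BT474R in every condition, NFKBIZ peaks at 1 h, and TNFAIP3 is highest in EGF-BT474R at 24 h.

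The first comparison asked how the resistant line differs from the sensitive line at baseline. At T0, 5 of the 10 members differed, against 46.9% of all genes tested, so that the share among the members was close to this background. Of the 24641 genes tested in both lines together, 15067 had a mean of at least 1 CPM. Shares of all genes, here and below, include the scarcer ones and were not matched for level. RELA and NFKB1, the subunits of the canonical dimer, were lower in BT474R, and REL, NFKB2 and NFKBIE were higher. The median log2 fold change was 0.13 over the members and 0 over all genes.

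NFKBIE, which encodes the inhibitor IkB epsilon (chr6:44258166-44265788, minus strand), showed the largest called difference. Its level was 6.88 and 6.31 CPM in the BT474 libraries and 12.8 and 13.7 CPM in the BT474R libraries at T0. The fold change was 2.01 (log2 1.00, SE 0.12, adjusted p = 2.74e-09). NFKB1, the gene of the p105 precursor of p50 (chr4:102501330-102617302, plus strand), was at 43.8 and 42.5 CPM in BT474 and at 28.5 and 26.5 CPM in BT474R. That was 0.635 of the BT474 level (log2 -0.65, SE 0.07, adjusted p = 1.52e-09). In both genes the libraries of the lines were far apart.

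RELA, the main transactivating subunit (chr11:65653599-65663090, minus strand), was at 134 and 126 CPM in BT474 and at 105 and 96.8 CPM in BT474R (log2 -0.37, SE 0.05, adjusted p = 3.28e-08). REL, the c-Rel gene (chr2:60881491-60931612, plus strand), was at 18.9 and 17.8 CPM in BT474 and at 25.1 and 23.1 CPM in BT474R (log2 0.39, SE 0.09, adjusted p = 0.000217). NFKB2, the gene of the p100 precursor of p52 (chr10:102394110-102402524, plus strand), was at 13.5 and 14.0 CPM in BT474 and at 18.5 and 18.3 CPM in BT474R (log2 0.42, SE 0.08, adjusted p = 3.1e-05). All 5 calls held with each T0 library left out and under all 8 alternatives of the analysis.

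RELB, the partner of p52 in the non-canonical branch (chr19:45001461-45038192, plus strand), was at 1.43 and 1.91 CPM in BT474 and at 1.5 and 3.37 CPM in BT474R. The lower BT474R library lay between the BT474 values, and the difference of 0.61 (SE 0.28) was not called (adjusted p = 0.0719). RELB was called without BT474R replicate 1 (1.00, adjusted p = 0.00408), with no filter (0.59, adjusted p = 0.0483) and with only the libraries compared (0.58, adjusted p = 0.0353). NFKBIA, NFKBIB, NFKBIZ and TNFAIP3 were not called at T0, with 95% intervals of -0.10 to 0.14, -0.02 to 0.49, -0.63 to 0.04 and -0.91 to 0.57.

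The order of the lines at T0 was the same in every other condition for the 5 called genes. In all 10 conditions (T0 and the 3 treatments at 3 times), both BT474R libraries lay below both BT474 libraries for RELA and NFKB1, and above them for REL, NFKB2 and NFKBIE. Of all genes tested, 32.9% were apart in 1 direction in all 10 conditions. The ratio of BT474R to BT474 means ranged from 0.765 to 0.916 for RELA and from 0.48 to 0.724 for NFKB1. It ranged from 1.19 to 1.62 for REL, from 1.26 to 2.17 for NFKB2 and from 1.52 to 2.52 for NFKBIE. For TNFAIP3 the ratio ran from 0.892 to 6.19, the widest span among the members. NFKBIA, at nearly equal levels at T0, was higher in BT474R without overlap in 8 of 10 conditions.

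**Figure D2:**
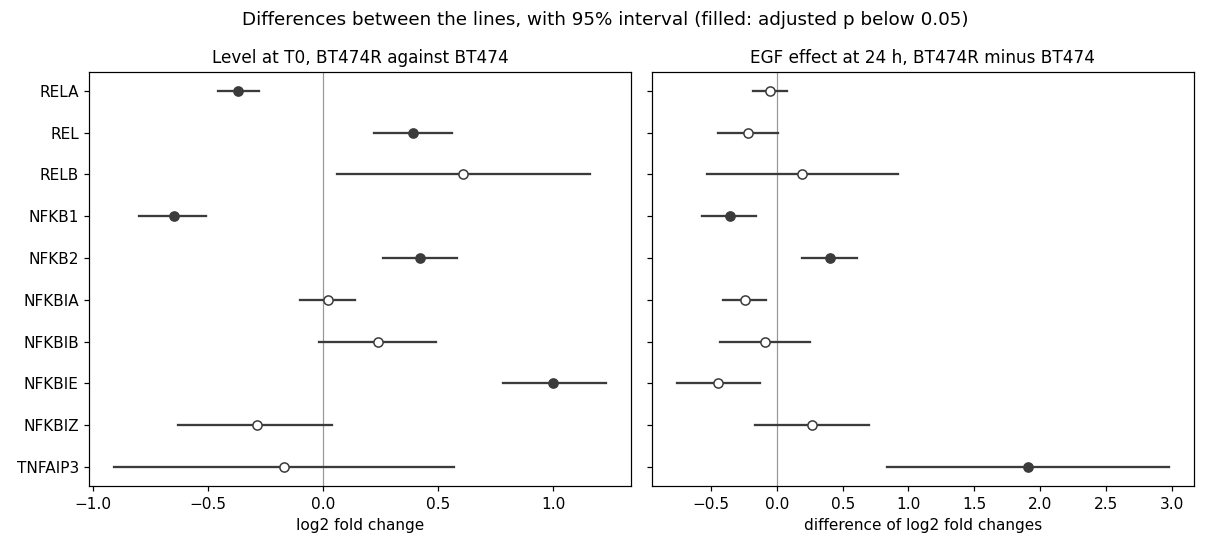
Differences between the lines for each member, with 95% intervals from the fit of all 40 libraries; filled points have an adjusted p below 0.05. The left panel shows the log2 fold change of BT474R against BT474 at T0, where NFKBIE lies at 1.00 and NFKB1 at -0.65, and the right panel the EGF effect at 24 h in BT474R minus that in BT474, where TNFAIP3 lies at 1.91.

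The ligand comparisons set each treated group against the vehicle of the same time and line, so EGF and HRG at a given time share their control libraries. After 1 h, NFKBIA fell and NFKBIZ rose in 3 of the 4 comparisons. Both genes were called in EGF-BT474, HRG-BT474 and EGF-BT474R, 2 of 10 members in each, where 2.19%, 2.77% and 0.457% of all genes were called. In HRG-BT474R none of the members was called, where 0.169% of all genes were; 3 members had an unadjusted p below 0.05, and DESeq2 called 0.

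NFKBIA encodes IkB alpha, the inhibitor that is rebuilt fastest after NF-kB activation (chr14:35401079-35404749, minus strand). In BT474 it was at 44.8 and 43.2 CPM with vehicle at 1 h, at 31.9 and 31.2 CPM with EGF and at 29.0 and 31.6 CPM with HRG. The fall was to 0.706 of vehicle with EGF (log2 -0.50, SE 0.06, adjusted p = 1.08e-07) and to 0.684 with HRG (log2 -0.55, SE 0.06, adjusted p = 2.4e-08). All ligand libraries lay below both vehicle libraries.

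In BT474R, NFKBIA was at 68.1 and 67.9 CPM with vehicle at 1 h and at 46.1 and 45.3 CPM with EGF. EGF therefore lowered it to 0.672 of vehicle (log2 -0.57, SE 0.07, adjusted p = 2.03e-05). With HRG it was at 55.6 and 57.2 CPM, below both vehicle libraries, and the log2 fold change of -0.26 (SE 0.07) was not called in the fit of the line (adjusted p = 0.224). It was called with both lines in 1 fit (-0.27, adjusted p = 0.0207) and when only the libraries compared were fitted (-0.27, adjusted p = 0.00778).

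With vehicle at 1 h, NFKBIA also differed from T0 in each line. It was lower in BT474 than the 53.4 and 53.2 CPM of T0 (log2 -0.27, SE 0.06, adjusted p = 0.00195). It was higher in BT474R than the 52.9 and 54.8 CPM of T0 (log2 0.34, SE 0.07, adjusted p = 0.00751). Whether this change differed between the lines was not tested. The call in BT474 was lost without vehicle replicate 2 (-0.24, adjusted p = 0.0504). The call in BT474R was lost without any of the 4 libraries, T0 or vehicle, at values of 0.31 to 0.36. At 1 h, EGF-BT474R thus lay below T0 as well as below vehicle, while the level with HRG, at a mean of 56.4 CPM, lay above the T0 mean of 53.9 CPM.

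NFKBIZ encodes IkB zeta, a nuclear protein that acts with NF-kB dimers at some of their targets (chr3:101827991-101861022, plus strand). In BT474 at 1 h it was at 9.80 and 8.41 CPM with vehicle, at 14.6 and 18.1 CPM with EGF and at 17.1 and 16.7 CPM with HRG. The rise was 1.78-fold with EGF (log2 0.83, SE 0.12, adjusted p = 1e-05) and 1.85-fold with HRG (log2 0.89, SE 0.13, adjusted p = 3.7e-06). Groups did not overlap. The EGF call was lost with only the libraries compared (0.83, adjusted p = 0.0868).

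In BT474R, NFKBIZ was at 6.6 and 6.85 CPM with vehicle, at 11.0 and 10.8 CPM with EGF and at 8.83 and 10.5 CPM with HRG. EGF raised it 1.62-fold (log2 0.70, SE 0.12, adjusted p = 0.0034). That call was lost without vehicle replicate 1 (0.67, adjusted p = 0.1), vehicle replicate 2 (0.73, adjusted p = 0.0575) or EGF replicate 1 (0.67, adjusted p = 0.0848). The HRG value of 0.53 (SE 0.12) was not called (adjusted p = 0.129), although it passed with no filter on low counts (adjusted p = 0.034) and with only the libraries compared (0.52, adjusted p = 0.0335).

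In BT474, NFKBIZ was also higher with vehicle at 1 h than at T0, where it was at 6.23 and 5.38 CPM (log2 0.65, SE 0.15, adjusted p = 0.00375). This call was lost without T0 replicate 2 (0.57, adjusted p = 0.0768) or vehicle replicate 1 (0.53, adjusted p = 0.113). In BT474R the value for vehicle was 0.50 (SE 0.14, adjusted p = 0.0661). The 1 h ligand effects on NFKBIZ in BT474 were therefore measured against a vehicle level that lay above T0. What part of that difference came from the medium, the water or the time was not tested. By 12 h, NFKBIZ was back between 4.88 and 6.97 CPM in all libraries of both lines, and its 12 h effects were not called.

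The other members were not called at 1 h. RELA stayed within 108 to 141 CPM across the 1 h libraries, with ligand effects of -0.02 to 0.08 and all 4 intervals between -0.12 and 0.16. TNFAIP3 was at 17 to 52 counts per library over both lines. In BT474 it had an interval of -0.55 to 0.66 with EGF and -0.85 to 0.46 with HRG, so changes within these bounds are not excluded. NFKBIB in EGF-BT474R was at 11.4 and 12.3 CPM against 15.6 and 16.0 CPM with vehicle. Its log2 fold change of -0.41 (SE 0.12) was not called (adjusted p = 0.312), but it was with only the libraries compared (-0.42, adjusted p = 0.0171) and with no filter (adjusted p = 0.0469). NFKBIB encodes IkB beta (chr19:38899700-38908893, plus strand). A second row of the table carries its name with a number added and held 62 to 164 counts per library, and adding that row to NFKBIB changed no call in any comparison.

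**Figure D3:**
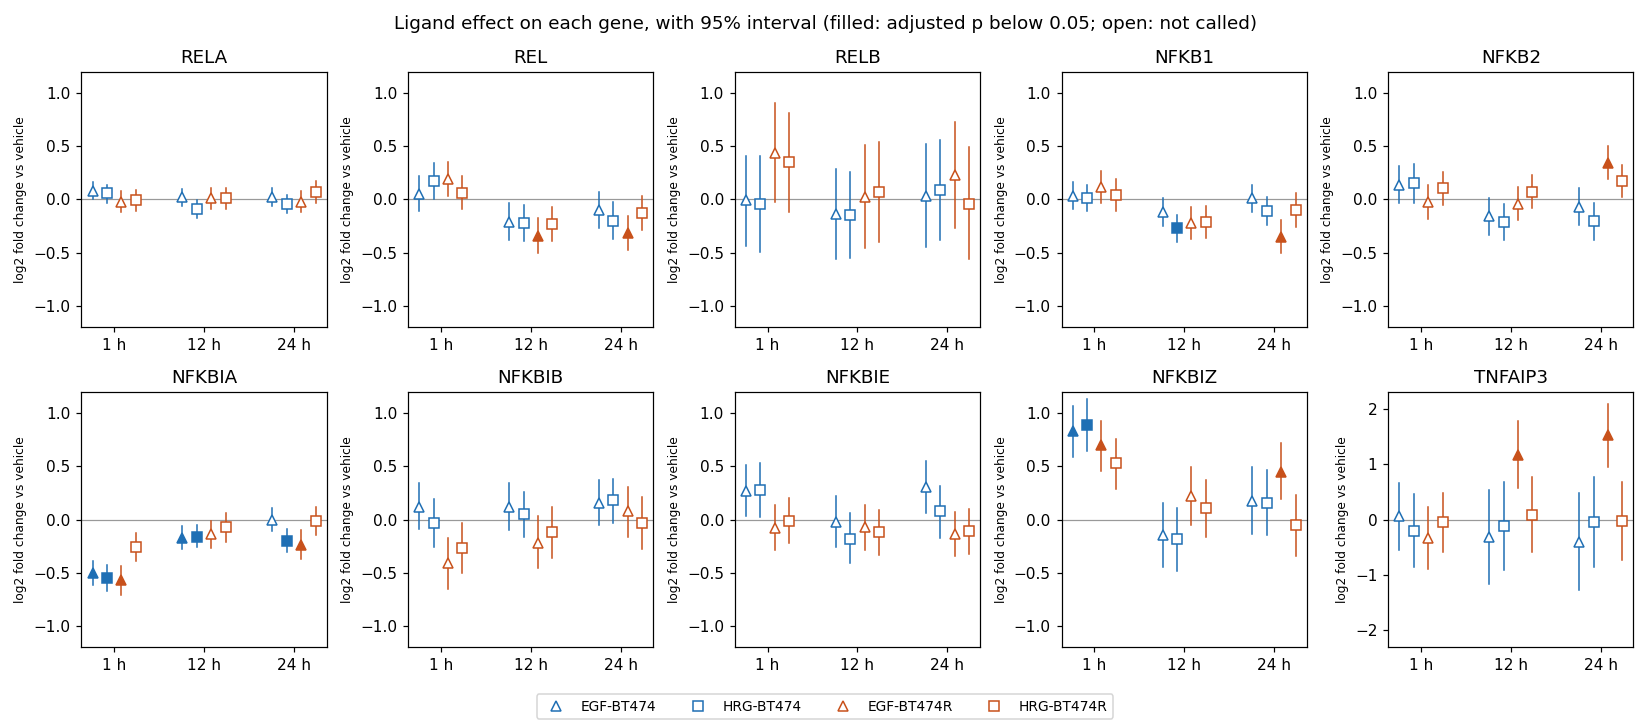
Log2 fold change of each member against the vehicle of the same time and line, by time, with 95% intervals. Triangles are EGF and squares HRG, blue is BT474 and orange BT474R, and filled symbols have an adjusted p below 0.05. NFKBIA falls and NFKBIZ rises at 1 h, and 6 members have filled orange triangles at 24 h, TNFAIP3 the highest at 1.52 (its axis is wider than the others).

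At 12 h, the ligand effects in BT474 were small. NFKBIA was called in EGF-BT474, 1 of 10 members against 16% of all genes. NFKBIA and NFKB1 were called in HRG-BT474, 2 of 10 against 25.8%. In both, the share among the members was below the background. NFKBIA was at 55.5 and 53.5 CPM with vehicle, at 49.4 and 48.4 CPM with EGF (log2 -0.17, SE 0.06, adjusted p = 0.0271) and at 49.0 and 50.9 CPM with HRG (log2 -0.16, SE 0.05, adjusted p = 0.0321). These calls were lost without any of the 4 libraries compared, at values of -0.19 to -0.15 for EGF and -0.18 to -0.11 for HRG. DESeq2, no filter, equal depth and 1 fit of both lines each lost them too, with adjusted p of 0.0523 to 0.0792 for EGF and 0.0714 to 0.184 for HRG.

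NFKB1 in HRG-BT474 at 12 h was at 37.2 and 36.9 CPM against 43.2 and 44.6 CPM with vehicle (log2 -0.27, SE 0.06, adjusted p = 0.00114). This call held with each of the 4 libraries left out, the largest adjusted p being 0.0256, and under all 9 alternatives. REL, at 15.3 and 16.8 CPM with HRG against 18.3 and 18.5 CPM, came near the threshold (-0.22, SE 0.09, adjusted p = 0.0578) and passed it with filterByExpr, with a replicate block and with only the libraries compared (adjusted p = 0.0494, 0.0477 and 0.0292). NFKB2 had a value of -0.21 (SE 0.08, adjusted p = 0.0641) and passed with filterByExpr (adjusted p = 0.0436).

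At 24 h in BT474, no member was called with EGF, against 16.4% of all genes, with 1 member at an unadjusted p below 0.05 and 0 called by DESeq2. With HRG, NFKBIA alone was called, against 24.1% of all genes. It was at 47.5 and 44.9 CPM with HRG and at 51.8 and 52.9 CPM with vehicle (log2 -0.20, SE 0.06, adjusted p = 0.00638). The call was lost without vehicle replicate 2 (-0.18, adjusted p = 0.0716) or HRG replicate 2 (-0.16, adjusted p = 0.0868), and at equal depth (-0.14, adjusted p = 0.078). NFKBIE in EGF-BT474 had a value of 0.31 (SE 0.12, adjusted p = 0.0954), with libraries at 7.76 and 6.47 CPM against 5.69 and 5.81 CPM, and was called only without EGF replicate 2 (0.41, adjusted p = 0.0434).

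In BT474R with EGF, REL and TNFAIP3 were called at 12 h, 2 of 10 against 12% of all genes. At 24 h 6 of the 10 were called, against 17.3% of all genes: TNFAIP3, NFKBIZ and NFKB2 rose, and NFKB1, REL and NFKBIA fell. Without EGF replicate 2 only 2 of the 6 calls were left, TNFAIP3 and NFKB2. In absolute terms, the median change at 24 h was 0.28 (log2) for the members and 0.25 for all genes.

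TNFAIP3 encodes A20, a ubiquitin-editing enzyme that shuts off signalling to IKK and is itself a classical NF-kB target (chr6:137867214-137883314, plus strand). In BT474R at 12 h it was at 0.71 and 0.955 CPM with vehicle (16 and 28 counts) and at 1.96 and 1.82 CPM with EGF (50 and 39 counts). That was a 2.24-fold rise (log2 1.16, SE 0.31, adjusted p = 0.015). The call was lost at equal depth (1.22, adjusted p = 0.0512), and without vehicle replicate 1 (1.00, adjusted p = 0.132), EGF replicate 1 (1.10, adjusted p = 0.116) or EGF replicate 2 (1.22, adjusted p = 0.054).

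At 24 h, TNFAIP3 was at 0.807 and 1.08 CPM with vehicle (21 and 23 counts) and at 2.05 and 3.30 CPM with EGF (47 and 81 counts). The rise was 2.86-fold (log2 1.52, SE 0.29, adjusted p = 0.00074). It was called under all 9 alternatives and with each of the 4 libraries left out, at values of 1.14 to 1.80. The EGF libraries differed by more than the distance from vehicle to the lower of them, but both lay above both vehicle libraries. With HRG at 24 h TNFAIP3 was at 0.698 and 1.13 CPM, a value of -0.02 with an interval of -0.73 to 0.68.

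NFKB2 in EGF-BT474R at 24 h was at 29.4 and 27.9 CPM against 23.3 and 21.7 CPM with vehicle, a 1.27-fold rise (log2 0.34, SE 0.08, adjusted p = 0.00294). It was called under all 9 alternatives and with each library left out. Its vehicle level at 24 h was itself above the 18.5 and 18.3 CPM of T0 (log2 0.30, SE 0.08, adjusted p = 0.0158). That call was lost without T0 replicate 1 (0.31, adjusted p = 0.0863), T0 replicate 2 (0.31, adjusted p = 0.101) or vehicle replicate 1 (0.25, adjusted p = 0.152). NFKB1 moved the other way with EGF, to 20.7 and 19.0 CPM from 24.9 and 25.5 CPM with vehicle (log2 -0.35, SE 0.08, adjusted p = 0.00399). The call of NFKB1 was lost without EGF replicate 2 (-0.27, adjusted p = 0.0774).

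REL was lower with EGF in BT474R at both late times. At 12 h it was at 20.4 and 20 CPM against 26.1 and 25.0 CPM (log2 -0.34, SE 0.08, adjusted p = 0.01), and at 24 h at 23.7 and 22.5 CPM against 26.9 and 30.8 CPM (log2 -0.32, SE 0.08, adjusted p = 0.0095). The 12 h call was lost without vehicle replicate 1 (-0.30, adjusted p = 0.0973), EGF replicate 1 (-0.36, adjusted p = 0.0586) or EGF replicate 2 (-0.32, adjusted p = 0.0876). The 24 h call was lost without vehicle replicate 2, the highest library (-0.21, adjusted p = 0.139), or EGF replicate 2 (-0.27, adjusted p = 0.104). Vehicle at 24 h was above T0 for REL (0.27, SE 0.08, adjusted p = 0.0383), and that call was lost without vehicle replicate 2 (0.16, adjusted p = 0.326), T0 replicate 1 (0.33, adjusted p = 0.0638) or T0 replicate 2 (0.22, adjusted p = 0.248), and with only the libraries compared (adjusted p = 0.0647).

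NFKBIA and NFKBIZ were called at 24 h in EGF-BT474R, but each rested on single libraries. NFKBIA was at 56.3 and 47.7 CPM with EGF against 62.0 and 60.3 CPM with vehicle (log2 -0.24, SE 0.07, adjusted p = 0.0184). Without EGF replicate 2 the value was -0.11 (adjusted p = 0.357), without vehicle replicate 1 -0.22 (adjusted p = 0.122), and without EGF replicate 1 -0.37 (adjusted p = 0.0011). It was not called with only the libraries compared (-0.24, adjusted p = 0.0813). NFKBIZ was at 6.41 and 7.65 CPM with EGF against 5.53 and 4.70 CPM with vehicle (log2 0.45, SE 0.13, adjusted p = 0.0224). That call was lost without EGF replicate 2 (0.33, adjusted p = 0.232) or vehicle replicate 2 (0.36, adjusted p = 0.146), at equal depth (0.34, adjusted p = 0.189) and with only the libraries compared (0.45, adjusted p = 0.11).

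HRG called none of the members in BT474R at 12 h or 24 h, where 4.12% and 2.78% of all genes were called, and DESeq2 called 0 at both times. At an unadjusted p below 0.05 there were 2 members at 12 h and 1 at 24 h. The largest values at 12 h were -0.23 for REL (SE 0.08, adjusted p = 0.146) and -0.21 for NFKB1 (SE 0.08, adjusted p = 0.138), beside EGF values of -0.34 and -0.22 at that time. The EGF value of NFKB1 at 12 h was not called (adjusted p = 0.0728), but it was with both lines in 1 fit (adjusted p = 0.0415) and with only the libraries compared (adjusted p = 0.00976). At 24 h NFKB2 had a value of 0.17 (SE 0.08, adjusted p = 0.318).

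Set directly against EGF, HRG differed for 2 of the 10 members in BT474R at 24 h, against 5.18% of all genes. TNFAIP3 was lower with HRG than with EGF (log2 -1.54, SE 0.30, adjusted p = 0.00221) and so was NFKBIZ (log2 -0.50, SE 0.14, adjusted p = 0.0326). Without EGF replicate 2 the value was -1.16 for TNFAIP3 (adjusted p = 0.0959) and -0.38 for NFKBIZ (adjusted p = 0.33), and the NFKBIZ call was also lost without HRG replicate 1 (-0.41, adjusted p = 0.163). With only the libraries compared neither was called (adjusted p = 0.448 and 0.553), and NFKBIZ was not called by DESeq2 (adjusted p = 0.0597) or at equal depth (adjusted p = 0.147). At 12 h TNFAIP3 stood at -1.07 (SE 0.30, adjusted p = 0.101). No member differed between the ligands at 1 h or 12 h in BT474R (0.0494% and 1.42% of all genes) or at any time in BT474 (0.139%, 2.17% and 0.768%). In those 5 comparisons, 0, 1 or 2 members had an unadjusted p below 0.05, and DESeq2 called NFKBIA at 1 h in BT474R and no member in the others. NFKBIA there was higher with HRG than with EGF by 0.31 (SE 0.07, adjusted p = 0.249 in edgeR).

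How each effect changed over time was tested, per line, by an interaction term. From 1 h to 12 h, 2 of 10 members changed with EGF in BT474 (7.72% of all genes), 5 with HRG in BT474 (14.2%), 3 with EGF in BT474R (4.43%) and 0 with HRG in BT474R (0.992%, with 3 members at an unadjusted p below 0.05 and 0 by DESeq2). The effect on NFKBIA rose by 0.33 (SE 0.08) with EGF in BT474, by 0.39 (SE 0.08) with HRG in BT474 and by 0.43 (SE 0.10) with EGF in BT474R, with called values each time. The first of these was lost without vehicle replicate 1 of 1 h (0.30, adjusted p = 0.0526) and the last without EGF replicate 2 of 12 h (0.38, adjusted p = 0.0602). The effect on NFKBIZ dropped by 0.98 (SE 0.20) with EGF and by 1.07 (SE 0.20) with HRG in BT474, and in EGF-BT474R its change of -0.48 (SE 0.18) was not called (adjusted p = 0.176). From 12 h to 24 h, no member changed in any of the 4 series, where 0.517%, 2.5%, 0.185% and 0.0288% of all genes did in EGF-BT474, HRG-BT474, EGF-BT474R and HRG-BT474R. There, 1, 0, 1 and 0 members had an unadjusted p below 0.05, and DESeq2 called 0 in each. The largest was NFKB2 in EGF-BT474R (0.38, SE 0.11, adjusted p = 0.241).

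Whether the lines answered a ligand differently was tested as an interaction in the fit of all 40 libraries. The EGF effect at 24 h differed for 3 of the 10 members, against 4.01% of all genes. It was more positive in BT474R for TNFAIP3 (1.91, SE 0.55, adjusted p = 0.0372) and NFKB2 (0.40, SE 0.11, adjusted p = 0.0197) and more negative for NFKB1 (-0.36, SE 0.10, adjusted p = 0.0395). In BT474 at 24 h, TNFAIP3 was at 0.41 and 0.453 CPM with EGF and at 0.329 and 0.759 CPM with vehicle, on 7 to 20 counts. NFKB1 was at 45.2 and 37.8 CPM with EGF in BT474, on both sides of its vehicle values of 42.0 and 40.3 CPM, and NFKB2 was at 13.2 and 13.1 CPM against 13.6 and 13.8 CPM.

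Each of these 3 differences was lost with some libraries left out. For TNFAIP3 the value was 1.15 without BT474 vehicle replicate 2 (adjusted p = 0.59), 1.52 without BT474R EGF replicate 2, 1.70 without BT474R vehicle replicate 1, and 1.84 or 1.99 without BT474 EGF replicate 1 or 2. For NFKB1 it was -0.21 without BT474 EGF replicate 1 (adjusted p = 0.46), -0.30 without BT474R EGF replicate 2, -0.32 without BT474 vehicle replicate 2, and -0.38 or -0.34 without BT474R vehicle replicate 1 or 2. For NFKB2 the values without BT474 vehicle replicate 1 or 2, BT474 EGF replicate 1, BT474R vehicle replicate 2 or BT474R EGF replicate 1 lay between 0.36 and 0.42, with adjusted p up to 0.0881. At equal depth and with only the libraries compared none of the 3 was called, with values at equal depth of 1.16 for TNFAIP3, 0.29 for NFKB2 and -0.36 for NFKB1. NFKB1 was also lost by DESeq2 (-0.34, adjusted p = 0.0537), with DESeq2 size factors (adjusted p = 0.0569) and with no filter (adjusted p = 0.0773), and NFKB2 with no filter (0.41, adjusted p = 0.0973). No alternative and no left-out library turned the direction of any of the 3.

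In the other 5 interactions between the lines no member was called. The shares of all genes called there were 0.138% for EGF and 0.544% for HRG at 1 h, 1.96% and 4.07% at 12 h, and 3.33% for HRG at 24 h. With EGF at 1 h 2 members had an unadjusted p below 0.05 and in each of the others 1, and DESeq2 called 0 in each of the 5. For NFKBIB with EGF at 1 h the difference was -0.56 (SE 0.17, adjusted p = 0.423). It was called with only the libraries compared (-0.56, adjusted p = 0.0172). For NFKBIA at 1 h with HRG, the effect in BT474R minus that in BT474 was 0.27, with an interval of 0.10 to 0.44 and an adjusted p of 0.329. The NFKBIA fall at 1 h with HRG is therefore not shown to differ between the lines, although it was called in BT474 alone. For TNFAIP3 with EGF at 12 h the difference was 1.46 (SE 0.54, adjusted p = 0.215). For NFKB2 with HRG it was 0.27 (SE 0.11, adjusted p = 0.171) at 12 h and 0.34 (SE 0.11, adjusted p = 0.0772) at 24 h. The 24 h value was near the 0.40 with EGF and passed with filterByExpr (0.36, adjusted p = 0.0411). The NFKB2 difference is therefore not shown to be particular to EGF.

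Vehicle-treated cells were also set against T0, since the vehicle groups carried the change of medium and the hours in culture. Besides NFKBIA and NFKBIZ at 1 h in BT474 (2 of 10 members, 6.61% of all genes), NFKBIA was called at 1 h in BT474R (2.24%) and REL and NFKB2 at 24 h in BT474R (13.7%). No member was called at 12 h or 24 h in BT474 (6.41% and 11.4%) or at 12 h in BT474R (1.13%), with 1, 1 and 2 members at an unadjusted p below 0.05 and 0 called by DESeq2. TNFAIP3 in BT474R vehicle at 1 h was at 1.61 and 1.61 CPM against 0.96 and 0.749 CPM at T0 (0.93, SE 0.33, adjusted p = 0.188).

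Across the 20 group means of log2 CPM, centred within each line, the members most alike were RELA and NFKB1 (Pearson's r 0.76) and the least alike were NFKBIA and NFKBIZ (r -0.86), which moved in opposite directions at 1 h. NFKB1 and NFKB2 had an r of -0.63. These values describe 20 points that share lines, times and libraries. The genes most like NFKBIZ on the same measure were the early response genes KLF6, IER2 and NR4A3, each with r 0.98. Those most like TNFAIP3 were IL1RAP (0.9), LRP12 and LRAT (0.86 each). Those most like NFKBIA were ZNF296 (0.92), LOC105378948 (0.9) and PARS2 (0.87), and among those most like NFKB2 were OPTN and VASH2 (0.91 each). PRPF6 and SMARCB1 were most like RELA (0.95 each), and ALDH9A1 (0.93) was most like NFKB1. PDE3B (0.92) was nearest to REL, ITGB8 (0.84) to RELB, ZNF341 (0.81) to NFKBIB and EVPLL (0.82) to NFKBIE. A total of 13890 genes were ranked.

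The rest of the pathway was described through lists of receptors, ligands, kinases and adaptors, other brakes, and known target genes. The lists were chosen with earlier results of these data known, so their shares are a description and not an independent test. The cytokines that start the pathway were scarce: of 10 listed ligand genes, only 5 passed the filter in BT474 and 3 in BT474R, TNF in neither, and none of those that passed exceeded 0.847 CPM in any library. None of the ligand genes tested was called in any of the 12 ligand comparisons or at T0. Of 10 receptors, 8 were tested in each line. TNFRSF12A, the receptor for TWEAK, rose in EGF-BT474 at 1 h from a mean of 41.3 to 63.6 CPM (log2 0.60, SE 0.06) and in HRG-BT474 to 67.7 CPM (0.70, SE 0.07). At 12 h the rise was 0.89 (SE 0.06) in EGF-BT474 and 1.15 (SE 0.06) in HRG-BT474. In BT474R it was 0.88 (SE 0.09) with EGF and 0.45 (SE 0.09) with HRG at that time. TNFRSF12A was still higher at 24 h in EGF-BT474 (0.73, SE 0.07), HRG-BT474 (0.72, SE 0.07) and EGF-BT474R (0.97, SE 0.10). No receptor was called at 1 h in BT474R, or at 24 h in HRG-BT474R. TNFRSF11A, the receptor RANK, rose most at 24 h in EGF-BT474R, from 3.29 to 10.3 CPM (1.66, SE 0.20). IL1R1, the interleukin 1 receptor, fell at 24 h in HRG-BT474 from 46 to 17 CPM (-1.46, SE 0.07). It fell in EGF-BT474 to 22.2 CPM (-1.06, SE 0.07) and in EGF-BT474R from 24.2 to 14.5 CPM (-0.74, SE 0.10).

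All 26 IKK kinases and adaptors were tested. MAP3K14, which encodes the kinase NIK of the non-canonical branch, and BCL10, an adaptor upstream of IKK, rose in BT474 at 1 h. MAP3K14 went from 16.5 to 25.8 CPM with EGF (0.62, SE 0.08) and to 27.1 CPM with HRG (0.70, SE 0.08). They were the 2 called members of the list at that time (7.69% of it with either ligand, against 2.19% of all genes with EGF and 2.77% with HRG). At T0, 21 of the 26, or 80.8%, differed between the lines, 13 higher and 8 lower in BT474R, against 46.9% of all genes. None of the 26 was below 2.16 CPM in any library, while all genes include scarcer ones, so these shares are not matched for level. MAP3K14 was lower in BT474R (5.41 against 10.2 CPM, log2 -0.92, SE 0.13), as were RBCK1 and SHARPIN, partners in the linear ubiquitin ligase (-0.79, SE 0.08, and -0.64, SE 0.07). MAP3K7, the kinase TAK1, was higher (110 against 69.1 CPM, log2 0.66, SE 0.05). In EGF-BT474R at 24 h, 9 of the 26 were called (34.6%, against 17.3% of all genes), 6 higher and 3 lower. RBCK1 (0.76, SE 0.09) and TRAF3 (0.57, SE 0.13) were among the higher. TRAF5 (-0.33, SE 0.07), TAB1 (-0.29, SE 0.08) and TAB2 (-0.20, SE 0.06) were lower.

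Of 12 other brakes and nuclear IkB proteins, 11 were tested. BCL3, a nuclear IkB protein that binds p50 and p52 dimers, was the one that rose with EGF at both late times in both lines. In BT474R it went from 65.1 to 118 CPM at 24 h (0.86, SE 0.12), and it was higher in BT474R than in BT474 at T0 (101 against 49.8 CPM, log2 1.02, SE 0.11). CYLD, a deubiquitinase that opposes IKK activation, fell with EGF and HRG at 12 h and 24 h in BT474 (values of -0.37 to -0.26). None of the 11 was called at 1 h in any comparison.

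Of 30 known target genes, 21 were tested in BT474 and 20 in BT474R. In EGF-BT474R, those called were 8 of 20 (40%) at 12 h and 13 of 20 (65%) at 24 h, where 12% and 17.3% of all genes were called. The 24 h genes were 11 higher and 2 lower, with a median log2 fold change of 0.83 over the list and -0.01 over all genes. ICAM1, an adhesion molecule that interferons also induce, rose from 1.21 to 7.66 CPM (2.64, SE 0.22), F3, the tissue factor gene, from 0.908 to 4.03 CPM (2.14, SE 0.24) and IER3, an early response gene, from 6.11 to 25 CPM (2.03, SE 0.12). EFNA1, an ephrin gene, fell (-0.78, SE 0.08). In HRG-BT474R 2, 3 and 2 of the 20 were called from the earliest to the latest time, against 0.169%, 4.12% and 2.78% of all genes.

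In BT474 at 24 h, 7 of 21 target genes (33.3%) were called with either ligand, against 16.4% and 24.1% of all genes. The directions were mixed: EGF raised 4 and lowered 3, and HRG raised 3 and lowered 4. At 1 h, CXCL8, the interleukin 8 gene, rose from 0.178 to 1.92 CPM with EGF (3.40, SE 0.43) and to 3.47 CPM with HRG (4.26, SE 0.40). The list's share called in BT474 at 1 h was 14.3% with EGF and 23.8% with HRG, against 2.19% and 2.77% of all genes. IER3 was called in all 12 ligand comparisons and always rose, between 0.59 (SE 0.14) in HRG-BT474R at 24 h and 2.03 in EGF-BT474R at 24 h. At T0, 55% of the 20 target genes tested were called, 4 higher and 7 lower in BT474R, against 46.9% of all genes. BIRC3, an inhibitor of apoptosis, was lower in BT474R (0.531 against 3.2 CPM, log2 -2.55, SE 0.29). IER3 was higher there (6.76 against 2.23 CPM, log2 1.60, SE 0.18). The members' own changes and those of the target genes in EGF-BT474R stand side by side here, and no relation between them was tested.

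**Figure D4:**
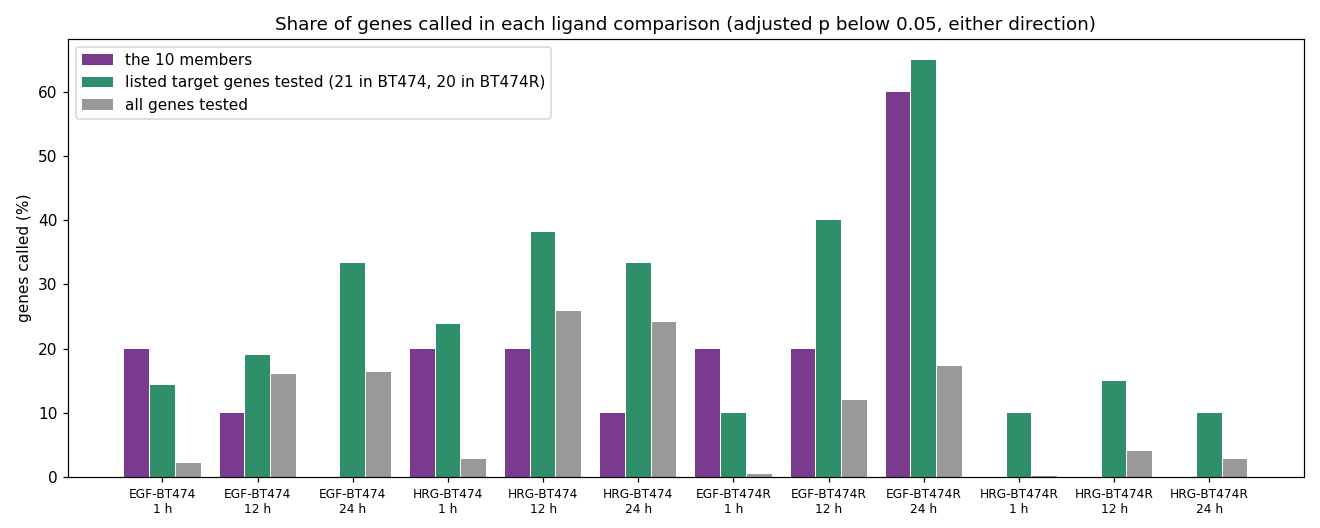
Percent of genes called (adjusted p below 0.05, either direction) in each of the 12 ligand comparisons, for the 10 members, for the listed target genes tested and for all genes tested. In EGF-BT474R at 24 h, 6 of 10 members and 65% of the target genes were called, against 17.3% of all genes. Members and target genes were chosen with earlier results of these data known, so the shares are a description.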

How the data were processed

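RNA-seq read counts of 40 libraries were deposited as 1 table of whole-number counts per gene, not normalized. Per the study's methods, the authors trimmed reads (Trim Galore 0.6.6), aligned them to GRCh38.p13 and counted them with featureCounts; the annotation release and the use of strand are not given in the sources used here, so reads of overlapping genes on the other strand may be included. Groups came from the labels. A gene was tested if 50% or more of a fit's libraries had 1 count or more of it, 25146 in BT474, 24287 in BT474R and 24641 in both lines together. edgeR 4.0.16 (R 4.3.3) with TMM factors (0.936 to 1.08) and the quasi-likelihood test was fitted to the 20 libraries of each line for ligand, vehicle and time effects, and to all 40 for differences between the lines, and p-values were adjusted (Benjamini-Hochberg) over every gene of the fit. The SE is the log2 fold change over the square root of F. Intervals are nominal 95% from the normal quantile of this SE, so they are somewhat narrower than the F test implies. DESeq2 1.42.0, its size factors, filterByExpr, no filter, a replicate block, equal depth (19200632 and 16794594 counts), only the libraries compared, both lines in 1 fit, summed copy rows and each library left out were the alternatives. The script was tested on simulated data. Motifs were matched on both strands of the windows. The members and gene lists were chosen with earlier results of these data known. All 10 members are named, and up to 3 called genes per direction of the other lists, those with a mean of at least 1 CPM, groups that do not overlap and the largest change. Depth ranged from 16794594 to 33387936 counts, which covers counting error only. A few genes are not reported here.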

Additional observations from a re-analysis of the deposited data

Results flagged for a closer look

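The results here are those where an effect differed between times or between the lines by a test of the difference itself (edgeR's quasi-likelihood interaction test, adjusted over all genes). The effect of EGF in BT474 changed from 1 h to 12 h for NFKBIA by 0.33 (SE 0.08, adjusted p = 0.00723) and for NFKBIZ by -0.98 (SE 0.20, adjusted p = 0.000777). The NFKBIA value was lost without vehicle replicate 1 of 1 h (0.30, adjusted p = 0.0526), and the NFKBIZ value was kept with each of the 8 libraries left out.

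The effect of HRG in BT474 changed between the same times for 5 members. NFKBIA changed by 0.39 (SE 0.08, adjusted p = 0.000649) and NFKBIZ by -1.07 (SE 0.20, adjusted p = 0.000101), and both were kept with each of the 8 libraries left out. REL changed by -0.39 (SE 0.12, adjusted p = 0.0249), NFKB1 by -0.29 (SE 0.09, adjusted p = 0.0291) and NFKB2 by -0.36 (SE 0.12, adjusted p = 0.0465). REL was lost without vehicle replicate 2 (-0.33) or HRG replicate 2 (-0.29) of 1 h, or vehicle replicate 1 (-0.41), vehicle replicate 2 (-0.37) or HRG replicate 1 (-0.31) of 12 h. NFKB1 was kept only without HRG replicate 1 of 1 h or vehicle replicate 1 of 12 h, and was lost without any of the other 6 libraries at values of -0.31 to -0.26. NFKB2 was lost without any of the 8. At equal depth REL (-0.35, adjusted p = 0.0751), NFKB1 (-0.25, adjusted p = 0.0757) and NFKB2 (-0.36, adjusted p = 0.0926) were lost. NFKB1 was also lost with both lines in 1 fit (-0.27, adjusted p = 0.0699). NFKB2 was lost by DESeq2 (-0.36, adjusted p = 0.111) and with no filter (-0.35, adjusted p = 0.107).

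The effect of EGF in BT474R changed from 1 h to 12 h for REL by -0.53 (SE 0.12, adjusted p = 0.00869), for NFKBIA by 0.43 (SE 0.10, adjusted p = 0.0081) and for TNFAIP3 by 1.5 (SE 0.42, adjusted p = 0.0455). REL was lost without EGF replicate 1 of 1 h (-0.44) and NFKBIA without EGF replicate 2 of 12 h (0.38). REL was also lost at equal depth (-0.38, adjusted p = 0.111). TNFAIP3 was lost without any of the 8 libraries, at values of 1.33 to 1.77. It was also lost by DESeq2 (1.52, adjusted p = 0.0543) and at equal depth (1.24, adjusted p = 0.263).

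The EGF effect at 24 h in BT474R minus that in BT474 was -0.36 for NFKB1 (SE 0.10, adjusted p = 0.0395), 0.40 for NFKB2 (SE 0.11, adjusted p = 0.0197) and 1.91 for TNFAIP3 (SE 0.55, adjusted p = 0.0372). Each was lost without any 1 of 5 of the 8 libraries, named with their values in the report.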

How the results depend on the processing

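Single values were followed for 207 results, the 43 called ones and the 164 uncalled ligand, T0 and line differences; uncalled vehicle, time and HRG against EGF values enter only as counts. None of the 43 was reversed by an alternative. Of the 43, 18 were lost under some alternative other than a left-out library, and of the 164 uncalled values 10 were gained under an alternative and 6 with a library left out. With only the libraries compared, the members called were 1 for EGF-BT474 at 1 h, 2 for HRG-BT474R at 1 h, 4 for EGF-BT474R at 12 h, 0 for HRG against EGF in BT474R at 24 h, 4 for vehicle in BT474R at 1 h and 1 at each of its later times, and 1 and 0 for the line difference with EGF at 1 h and 24 h. At equal depth they were 0 for EGF-BT474 at 12 h, 1 for HRG-BT474 at 12 h, 0 for HRG-BT474 at 24 h, 2 for its change from 1 h to 12 h, 1 for EGF-BT474R at 12 h, 1 for its change from 1 h to 12 h and 0 for the line difference with EGF at 24 h. With no filter, DESeq2 or 1 fit of both lines, EGF-BT474 at 12 h had 0, HRG-BT474 at 12 h had 1 and HRG against EGF in BT474R at 1 h had 1. No filter gave 1 for HRG-BT474R at 1 h (as 1 fit of both lines did), for HRG against EGF in BT474R at 12 h and for the line difference with EGF at 24 h. filterByExpr gave 4 for HRG-BT474 at 12 h and 1 for the line difference with HRG at 24 h.

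With each library left out in turn, the members called ranged from 0 to 0 for EGF-BT474 at 12 h, 1 to 1 for HRG-BT474 at 12 h, 0 to 1 for EGF-BT474 at 24 h, 0 to 2 for HRG-BT474 at 24 h and 0 to 1 for HRG against EGF in BT474 at 24 h. In BT474R they ranged from 1 to 2 for EGF at 1 h, 0 to 2 for EGF at 12 h, 2 to 6 for EGF at 24 h and 0 to 3 for HRG against EGF at 24 h. For changes from 1 h to 12 h the range was 1 to 2 for EGF-BT474, 2 to 4 for HRG-BT474 and 1 to 2 for EGF-BT474R. For vehicle against T0 it was 1 to 2 in BT474 at 1 h, 0 to 0 in BT474R at 1 h and 0 to 1 in BT474R at 24 h, and for the line difference at 24 h 0 to 3 with EGF and 0 to 1 with HRG. Leaving out 1 h and 12 h libraries was not run for the differences between the lines. The replicate numbers are not stated to mark shared batches, and same-numbered libraries deviated together by r of -0.093 to 0.385 over 12 comparisons, 3 of them above 0.1. The replicate block made REL in HRG-BT474 at 12 h a call (-0.22, adjusted p = 0.0477) and lost none. With 2 libraries a group and 7 to 81 counts of TNFAIP3, its small changes were not detectable.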
